A study of Ciona savignyi with 56 samples.

Results

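The endoderm of the early sea squirt embryo is described here from 57 single cells of Ciona savignyi, taken from a series of 773 cells. They are the cells to which the authors' cell table gives the names A7.1, A7.2 and A7.5 (anterior) or B7.1 and B7.2 (posterior) at the 64- and 110-cell stages. At 64 cells the table keeps 2 endoderm classes, an anterior one of 18 cells and a posterior one of 10 cells. At 110 cells it joins them in 1 class of 29 cells. Each name occurs on the left and the right side of an embryo, so that 10 such cells are possible per embryo and 60 in the 6 embryos used. Embryos 1, 2 and 3 gave 10, 9 and 9 endoderm cells at 64 cells, and 10, 9 and 10 at 110 cells.

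All 6 embryos were untreated embryos of animals collected from the sea and kept at 18 degrees. Membranes were removed before single embryos were taken apart in trypsin, and each cell was picked by a capillary into its own tube. Polyadenylated RNA was copied with barcoded primers by a variant of Smart-seq2, and the values are UMIs, molecular tags that count the copies of 1 RNA molecule once. The comparison group in each embryo was all cells of its other classes, 144 cells in 12 classes at 64 cells and 268 cells in 15 classes at 110 cells. The 27 cells that the table labels low quality at these stages were left out. The embryos of the 2 stages are different embryos in different sequencing libraries, so stage and library cannot be told apart. For levels at earlier stages, 3 embryos of 4 cells, 2 of 16 cells and 2 of 32 cells were also used, whose labels name no treatment.

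As background, ascidian embryos cleave in a fixed pattern, and each blastomere has a name and, by the gastrula stage, mostly a single fate. Endoderm arises at the vegetal pole, where β-catenin enters the nuclei during cleavage and turns on endoderm regulators. These cells are the first to move inward at gastrulation, which begins at about the later of the stages compared here. By their names, the endoderm cells of the later stage are the undivided cells of the earlier one, while most of their neighbours have divided again. Neighbouring vegetal lineages that the text refers to are the notochord (A7.3 and A7.7 with their daughters A8.5, A8.6, A8.13 and A8.14, and B8.6), the nerve cord (A7.4 and A7.8 with their daughters), the trunk lateral cells (A7.6), the mesenchyme (B7.7 and B8.5), the tail muscle (B7.4 and B7.8 with their daughters) and the germ line (B7.6).

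The files do not pair identifiers with gene names, so genes are given by identifier and no known endoderm regulator could be looked up by symbol. No function is assigned to an identifier. How the authors gave cells their class is not stated in the sources used here. A gene used for the class labels would differ between classes for that reason, and this cannot be told apart from the differences given for endoderm against other classes.

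The endoderm cells held a median of 38730 UMIs (15848 to 118331) and 5420 detected genes at 64 cells, and 43661 UMIs (13488 to 90325) and 5458 genes at 110 cells. Summed per embryo they gave 338085 to 511206 UMIs, and the other classes 1998091 to 3657661. Equal amounts of cDNA were pooled per cell, so UMIs per cell do not measure the RNA content of a cell. The series' design text states 745 cells, and the matrix holds 773, of which 31 are labelled low quality. No doublet caller was run on these hand-picked cells. Among the 496 columns of the 64- and 110-cell embryos none was identical to another. In the whole series no barcode was shared by cells of 1 library.

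A pair of endoderm cells stood apart from the others of their stage, by a rule written after the values were seen. A gene counted for it if it had at least 10 UMIs in the cell and a level over 20 times that of the other endoderm cells pooled. In 1 posterior cell of 64-cell embryo 1, which also had the most UMIs (118331) and genes (7931), 46 genes met this rule and held 5.71% of its UMIs. In 1 cell of 110-cell embryo 1, 9 genes met it and held 2.84%. The other 55 endoderm cells had at most 2 such genes. For counts of called genes and for named genes, results that rest on these cells are given with and without them. Detection, class, share per cell and levels at earlier stages are given only for lists called with all endoderm cells. Of the 88 genes called higher at 64 cells, 65 were still called without the cells that stand apart.

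The gene proposed as endoderm marker, ENSCSAVG00000005749, had at least 1 UMI in 28 of 28 endoderm cells at 64 cells and in 29 of 29 at 110 cells. The exact 95% intervals of these shares reach down to 87.7% and 88.1%, for counting error only. Among other cells it was found in 4 of 144 (2.78%) at 64 cells, each with 1 UMI, against median depths of 38730 UMIs in endoderm and 36964 in other cells. At 110 cells it was found in 18 of 268 (6.72%), against median depths of 43661 and 29255 UMIs. In epidermis, the outer layer of the animal side, it had a UMI in 1 of 66 cells at 64 cells and, at 110 cells, in 2 of 56 anterior and 3 of 67 posterior cells. The label of the cells and their marker went together in every endoderm cell. This is a description and no check of the labels, since it is not known whether the gene was used for them.

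**Figure D1:**
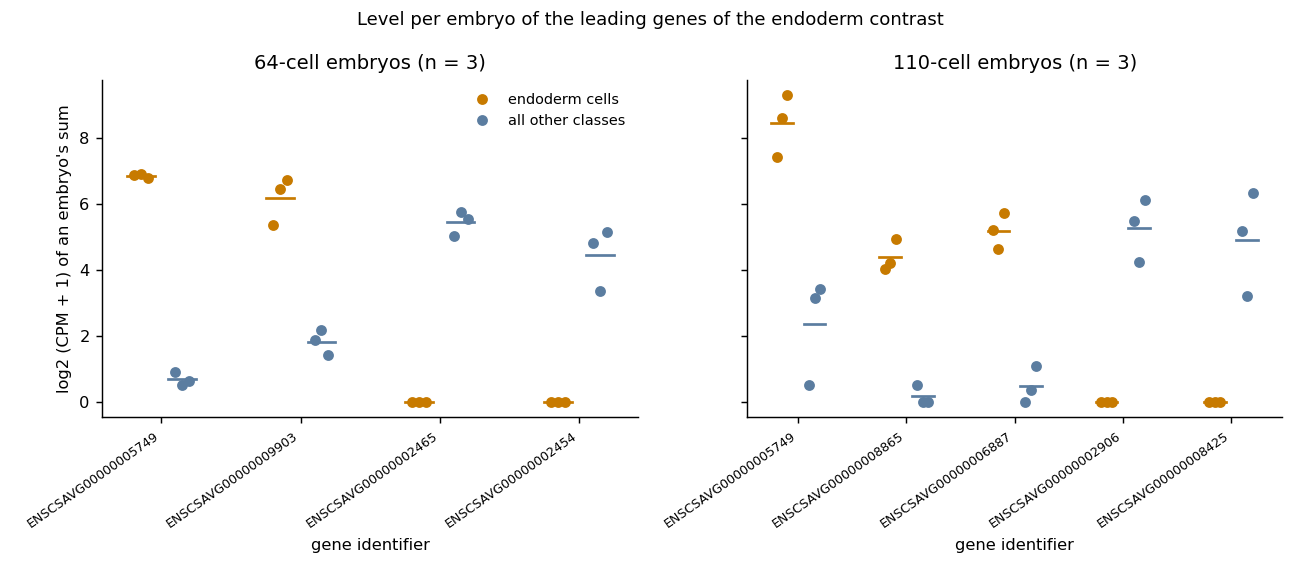
Levels of the leading genes in the summed endoderm cells (orange) and the summed cells of all other classes (blue) of each embryo, as log2 (CPM + 1); points are embryos (3 per stage) and lines their means. ENSCSAVG00000005749 is shown at both stages, and the 2 genes at the right of each panel had 0 UMIs in the endoderm of all 3 embryos.

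Endoderm differed from the other classes of the same embryo in 88 genes with higher and 106 genes with lower levels at 64 cells. These are 1.17% and 1.41% of the 7528 genes tested, by edgeR's quasi-likelihood test on summed UMIs with embryo as a block and a Benjamini-Hochberg adjusted p under 0.05. In 57 of the 88 and 85 of the 106 genes, the 3 endoderm values did not overlap the 3 values of the other classes. These genes were chosen by a test on the same sums, so this describes them and adds no support. The share without overlap among all tested genes is not given here. The median log2 difference was 2.26 for the higher and -1.58 for the lower genes. Without the endoderm cells that stand apart the counts were 70 higher and 119 lower, and 65 of the 88 and 102 of the 106 were still called. Without 64-cell embryo 1 they were 52 and 85.

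ENSCSAVG00000005749 had the largest log2 difference among the named genes that were higher at 64 cells. Its levels in the endoderm were 118, 118 and 111 CPM (UMIs relative to the library's total, scaled by TMM) in embryos 1 to 3, against 0.88, 0.45 and 0.56 CPM in the other classes. The 3 endoderm values lay close together and far above the others. The fitted difference was 7.34 on the log2 scale (SE 0.39, n = 3 embryos), with an adjusted p of 7.73e-17 in edgeR's quasi-likelihood test. ENSCSAVG00000009903 stood at 39.9, 87.3 and 105 CPM in the endoderm and 2.65, 3.57 and 1.68 CPM in the other classes. Its groups did not overlap, and embryo 1 had the lowest endoderm value. The log2 difference was 4.74 (SE 0.38), with an adjusted p of 6.15e-12 in the same edgeR quasi-likelihood test. Outside the endoderm, ENSCSAVG00000009903 was mainly in the trunk lateral cells A7.6, where 4 of 6 cells had a UMI, against 23 of 28 endoderm cells.

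The leading lower genes at 64 cells had no UMI in any endoderm cell. ENSCSAVG00000002465 had 0 CPM in the endoderm of all 3 embryos and 31.9, 53.5 and 45.3 CPM in the other classes. It had a UMI in 58 of 144 other cells, and its highest mean levels were in the notochord class A7.3/7, 166 CPM, and the nerve cord class A7.4/8, 154 CPM. It was detected in 8 of 8 and 11 of 11 cells of those classes, and in 0 of 28 endoderm cells, for which the exact 95% interval reaches up to 12.3%. Against a floor of 3 UMIs over the summed endoderm cells, its level in other classes was at least 16.5-fold higher. ENSCSAVG00000002454 likewise had 0 CPM in the 3 endoderm sums and 27.0, 9.36 and 34.7 CPM in the other sums, at least 8.73-fold higher against the same floor. It too was highest in classes A7.3/7 and A7.4/8, at 108 and 67.5 CPM. In edgeR's quasi-likelihood test the adjusted p-values of both were 6.19e-08 and 1.47e-05. For ENSCSAVG00000002454 it was 0.0733 without embryo as a block.

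Most of the genes higher in endoderm at 64 cells were not on or off between cell types. Over the 88 genes, the median share of endoderm cells with a UMI was 82.1%, against 32.6% of other cells at a similar median depth. Of them, 35 were detected in at least 90% of endoderm cells and 21 in at most 10% of other cells, and only ENSCSAVG00000005749 met both limits. This gene had been proposed as the marker, so its place is a description. The class with the highest mean level was the endoderm for 59 of the 88 genes. Next to the endoderm, the highest level lay in the trunk lateral cells A7.6 for 26 genes and in the notochord class A7.3/7 for 19. The lower genes had their highest level most often in the epidermis class, 28 of 106, and in the muscle class B7.4, 20 of 106.

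At 110 cells the endoderm had 109 genes with higher and 179 with lower levels than the other classes of the same embryo, 1.45% and 2.38% of the 7528 genes tested by edgeR's quasi-likelihood test. In 77 and 157 of them the embryos' values did not overlap, again a description of genes chosen on the same sums, without the share among all tested genes. The median log2 differences were 1.72 and -2.52. Without the endoderm cells that stand apart, 115 genes were higher and 207 lower, and 106 of the 109 and 179 of the 179 were still called. Without 110-cell embryo 3 the counts were 62 and 110.

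ENSCSAVG00000008865 led the higher genes at 110 cells, with 15.4, 17.4 and 30.05 CPM in the endoderm and 0.43, 0 and 0 CPM in the other classes. The log2 difference was 6.80 (SE 1.09, n = 3 embryos) and the adjusted p 2.43e-05 in edgeR's quasi-likelihood test. It had a UMI in 12 of 29 endoderm cells and in 1 of 268 other cells, a cell of the nerve cord class A8.7/8. At 64 cells the same gene had 3 UMIs in 2 of 28 endoderm cells and none in 144 other cells. ENSCSAVG00000006887 had 35.8, 24.0 and 52.6 CPM in the endoderm at 110 cells and 0, 0.28 and 1.12 CPM in the other classes. Its log2 difference was 6.05 (SE 0.76), with an adjusted p of 1.43e-07 in the same edgeR quasi-likelihood test. It was found in 16 of 29 endoderm cells and 3 of 268 other cells, 1 of class A7.6 and 2 of the mesenchyme class B8.5.

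ENSCSAVG00000005749 itself stood at 171, 388 and 631 CPM in the endoderm at 110 cells and at 0.43, 7.82 and 9.84 CPM in the other classes. Every endoderm value was above every other value, although the embryos differed. The log2 difference was 6.02 (SE 0.24), with an adjusted p of 5.78e-21 in edgeR's quasi-likelihood test. The cells outside the endoderm with most of it were few. In trunk lateral cells A7.6, 3 of 6 cells had up to 10 UMIs, with a mean over embryos of 50.1 CPM. In the notochord class A8.5/6/13/14, 2 of 20 cells had up to 6 UMIs. In the mesenchyme class B7.7, 1 of 4 cells had 26 UMIs.

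The leading lower genes at 110 cells belonged to different parts of the embryo. ENSCSAVG00000002906 had 0 CPM in the 3 endoderm sums and 43.9, 17.9 and 68.6 CPM in the other sums, at least 18.9-fold higher against the floor of 3 UMIs. Its highest mean levels were in posterior epidermis, 102 CPM, and anterior epidermis, 72.2 CPM. ENSCSAVG00000008425 also had 0 CPM in the endoderm and 35.3, 8.37 and 80.7 CPM in the other classes, at least 18.4-fold higher. Its highest mean levels were in the mesenchyme classes B7.7, 381 CPM, and B8.5, 156 CPM. Both genes were lowest in the other classes of embryo 2. In edgeR's quasi-likelihood test their adjusted p-values were 6.13e-09 and 1.82e-07.

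Over the 109 higher genes at 110 cells, the median share of cells with a UMI was 93.1% in the endoderm and 41.4% elsewhere, with the deeper cells being those of the endoderm. At least 90% of endoderm cells had a UMI of 58 of these genes, at most 10% of other cells had one of 28, and ENSCSAVG00000005749 alone met both limits. For 54 of the 109 the endoderm had the highest mean level of all classes. Among the other classes, the highest level lay in the notochord classes A8.5/6/13/14 for 27 genes and B8.6 for 22, and in the trunk lateral cells for 21. The 179 lower genes were highest in posterior epidermis (35 genes), anterior epidermis (31), and, among muscle classes, in B8.15/16 (25) and B8.7/8 (24).

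The contrasts of both stages come from different embryos, so that genes chosen at one stage can be measured at the other. Of the genes called higher in endoderm, 48 were called at both stages, 54.5% of the 88 at 64 cells and 44.0% of the 109 at 110 cells. Of those called lower, 91 were shared, 85.8% of the 106 and 50.8% of the 179. Without the endoderm cells that stand apart, 49 higher genes were shared, 70.0% of 70 at 64 cells and 42.6% of 115 at 110 cells. The shared lower genes were then 101, 84.9% of 119 and 48.8% of 207. Another 3 genes were higher at 64 cells and lower at 110 cells, and without the endoderm cells that stand apart there was 1. The remaining genes passed at a single stage, which does not show that they differ between stages.

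**Figure D2:**
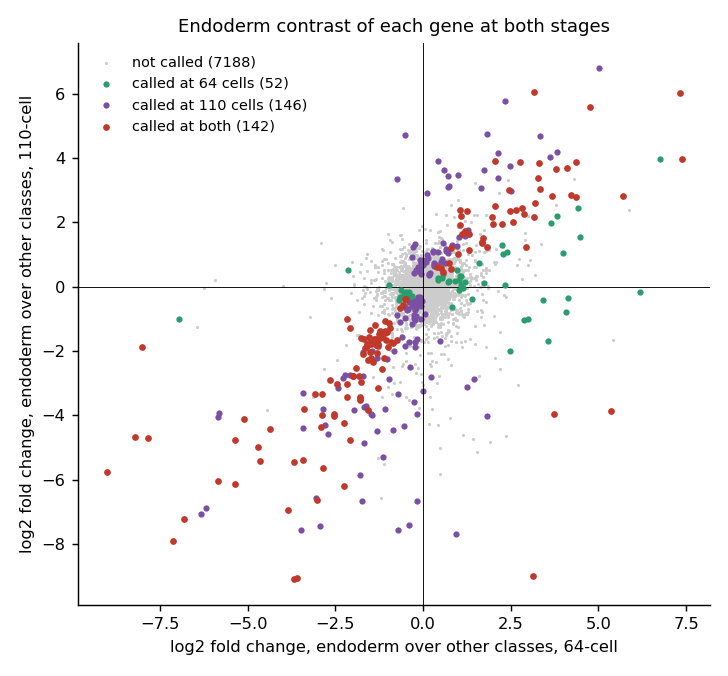
Log2 fold change of endoderm over other classes for each of 7528 genes, at 64 cells (horizontal axis) and 110 cells (vertical axis), coloured by the stage at which the gene was called. The 142 genes called at both stages lie at the upper right or the lower left except for 3, at the lower right, that were higher at 64 cells and lower at 110 cells.

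The 88 genes called higher at 64 cells had median contrasts of 0.85, 0.81 and 0.97 in the 110-cell embryos 1 to 3, as differences of log2 (CPM + 10). The median over all 7528 genes tested was -0.03 on average. In 59 of the 88 genes (67.0%) the endoderm value was the higher one in all 3 embryos, against 11.9% of all tested genes. For the list called without the cells that stand apart the mean of the medians was 1.32. The 106 lower genes had medians of -1.43, -1.54 and -1.86 at 110 cells, and 101 of them (95.3%) were lower in all 3 embryos, against 18.3% of all tested genes. In the opposite direction, the genes called higher at 110 cells had medians of 0.52, 0.46 and 0.67 in the 64-cell embryos. The medians of these lists had the same sign in each embryo of the other stage. Those embryos were not in the contrast that chose a list, but they shared its filter, scaling and dispersion, since both stages were fitted together.

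Per cell, the same 88 genes held a median of 1.56% of all UMIs in the 29 endoderm cells at 110 cells (1.16% to 2.01%). In the 268 other cells the median was 0.606%. Of those, 15 reached the lowest endoderm cell of their own embryo (1.16%, 1.33% and 1.29% in embryos 1 to 3), and all 15 were in the notochord classes, 11 of 20 cells of A8.5/6/13/14 and 4 of 5 cells of B8.6. Against the lowest endoderm cell of all 3 embryos the number was 20, with 2 trunk lateral cells A7.6 and 1 germ line cell B7.6 among them. Median shares in the endoderm of embryos 1, 2 and 3 were 1.31%, 1.62% and 1.65%. In A8.5/6/13/14 they were 0.980%, 1.49% and 1.37%. The endoderm median was the higher one in each embryo, but the ranges of single cells overlapped. The notochord classes A8.5/6/13/14 and B8.6 had the fewest UMIs per cell of the 16 classes, with medians of 19142 and 19399, and the part of depth in their shares was not tested.

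**Figure D3:**
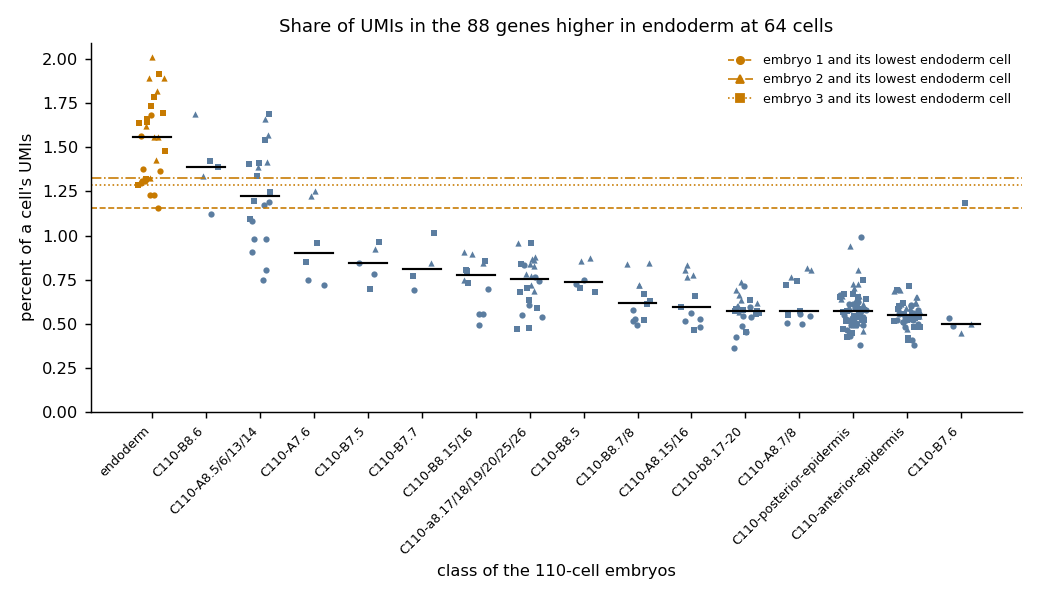
Percent of the UMIs of each 110-cell cell in the 88 genes called higher in endoderm at 64 cells, by class, ordered by the class median (black line). Marker shapes are embryos and the lines are each embryo's lowest endoderm cell (1.16%, 1.33% and 1.29% in embryos 1 to 3), and the 15 cells outside the endoderm that reach the line of their own embryo are all of the notochord classes.

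The 106 genes lower in endoderm at 64 cells gave another order of classes at 110 cells. They held a median of 3.33% of the UMIs of endoderm cells and 6.26% of other cells. Muscle class B8.7/8, at 22.4%, and muscle class B8.15/16, at 16.4%, were highest. Most of this was the share of 18 of the 106 genes that belong to a run of neighbouring identifiers described further on, with medians of 21.2% and 14.7% in these muscle classes and 2.38% in the endoderm. Over the other 88 genes of this lower list, a count taken after seeing the data, the order was different. Posterior epidermis, at 2.24%, and anterior epidermis, at 2.10%, were then highest, muscle class B8.7/8 stood at 1.22% and the endoderm, at 0.889%, was lowest. On this measure 25 of the 268 other cells lay at or below the highest endoderm cell, against 196 with the run's genes included.

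At 4 and 16 cells a larger share of the higher genes than of all tested genes was undetected. Of the 88 genes, 39 (44.3%) had no UMI in the 3 embryos of the 4-cell stage, summed over 1071103 UMIs, against 3.63% of all 7528 tested genes. At 16 cells, where columns hold reads and not UMIs, 18 of the 88 (20.5%) had no read in 2 embryos, against 2.09% of all tested genes. At the other end, 21 of the 88 (23.9%) had at least 20 CPM at 4 cells, against 68.9% of all tested genes. Of the 106 lower genes, 19 (17.9%) had no UMI at 4 cells and 54 (50.9%) had at least 20 CPM. ENSCSAVG00000005749 had 0 UMIs in the 4-cell embryos, 1 read at 16 cells in both embryos together, and in 1 embryo at 32 cells 2 reads in the precursors and 3 elsewhere.

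By the names of their daughters, the 32-cell blastomeres A6.1 and B6.1 give rise to endoderm cells, and A6.3 to endoderm and to the trunk lateral cells A7.6. The classes with the precursors A6.1, A6.3 and B6.1 were compared there with the rest of each of 2 embryos, in reads. The genes higher at 64 cells had median contrasts of 0.13 and 0.05, next to 0.09 and 0.09 for all tested genes. They were higher in both embryos in 37.5% of cases, against 39.1% of all tested genes, so that the list did not stand out at this stage. The genes lower at 64 cells had medians of -0.36 and -0.34 and were lower in both embryos in 66 of 106 cases (62.3%), against 16.3% of all tested genes. At 32 cells the lower list lay further from the values of all tested genes than the higher list did, and the difference between the lists was not tested. The part of low counts in that difference was not tested either.

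The endoderm of 110 cells was then compared with the endoderm of 64 cells, in the 3 sums of each stage. No gene of 5379 tested passed in edgeR's quasi-likelihood test (0.0% called), while 273 had an unadjusted p under 0.05 and DESeq2 called 7 higher and 1 lower. The stages' values did not overlap in 265 genes that were higher (4.93%) and 305 that were lower (5.67%) at 110 cells. Full separation of 3 against 3 embryos has a two-sided p of 0.1 in an exact permutation test. Separation at about these shares can therefore arise without a stage difference, and these genes are not read as stage changes. With every gene that had a count kept in the test, 21 genes were higher and 45 lower. For comparison, the summed other classes gave 0 higher and 1 lower gene of 7401 between the stages in the same test.

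ENSCSAVG00000005749 went from 125.8, 127 and 117 CPM in the 64-cell endoderm to 183, 402 and 662 CPM in the 110-cell endoderm, on the scale of this fit. The stages did not overlap, as in 4.93% of the tested genes in this direction. The 110-cell embryos were spread over a much wider range than the 64-cell embryos. The log2 difference was 1.76 (SE 0.38, n = 3 embryos per stage), and with an adjusted p of 0.486 it did not pass edgeR's quasi-likelihood test. DESeq2 called it with an adjusted p of 0.00881, and edgeR's quasi-likelihood test called it without the filter on low counts (9.75e-09) or without 110-cell embryo 1 (0.0157). Cell by cell, the median levels in embryos 1 to 3 were 125, 86.4 and 121 CPM at 64 cells and 150, 345 and 729 at 110 cells. The cells of both stages overlapped, since 110-cell embryo 1 lay within the range of 64-cell cells, 23.4 to 354.

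**Figure D4:**
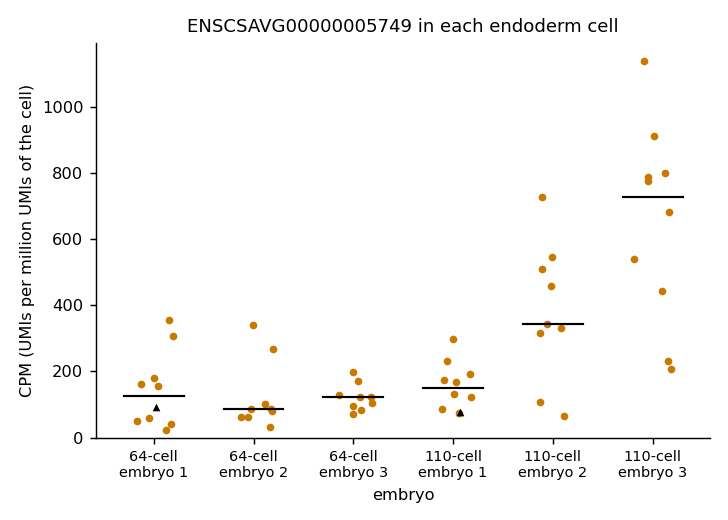
CPM of ENSCSAVG00000005749 in each endoderm cell (UMIs relative to the cell's total), by embryo; lines are medians and black triangles the 2 cells that stand apart. Cells of 110-cell embryos 2 and 3 reach 727 and 1138, and those of 110-cell embryo 1 reach 297.

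The genes whose pattern over classes was most like that of ENSCSAVG00000005749 were ENSCSAVG00000009903 and ENSCSAVG00000005769. The measure was Pearson's correlation of log2 (CPM + 10) over 88 sums per class and embryo, which came from 30 classes and shared libraries and depths within an embryo. It was 0.83 and 0.72. ENSCSAVG00000009903 stood at 241, 192 and 404 CPM in the endoderm of the 110-cell embryos and at 1.29, 4.75 and 10.96 CPM in the other classes. On the scale of the stage fit it was at 42.6, 93.5 and 111 CPM at 64 cells and at 257, 199 and 424 CPM at 110 cells, without overlap, and its adjusted p of 0.358 did not pass edgeR's quasi-likelihood test. ENSCSAVG00000005769 had 55.8, 253 and 102 CPM in the 64-cell endoderm and 177, 93.6 and 193 CPM in the 110-cell endoderm, so that its stages overlapped. In the summed other classes it stayed between 4.42 and 25.4 CPM in all 6 embryos. Among them the trunk lateral cells A7.6 were highest, with means over embryos of 74.8 CPM at 64 cells and 64.0 CPM at 110 cells. The endoderm means were 142 and 158 CPM.

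Whether the endoderm changed beyond the rest of the embryo was tested as the difference between the contrasts of the stages. In edgeR's quasi-likelihood test 2 genes had a higher and 18 a lower contrast at 110 cells, 0.0266% and 0.239% of 7528. Of the 18, 9 were above the other classes at 64 cells and below them at 110 cells, 4 were above at both and 5 below at both. Without the cells that stand apart 11 of the 18 were still called, 4 of them among those 9, as were both higher genes. The contrast of ENSCSAVG00000005749 was lower by 1.32 at 110 cells on the log2 scale (SE 0.63), which did not pass the edgeR quasi-likelihood test (adjusted p 0.866). As differences of log2 (CPM + 10), its contrasts were 3.55, 3.62 and 3.52 in the 64-cell embryos and 4.12, 4.48 and 5.01 in the 110-cell embryos, higher at 110 cells. The direction thus depended on the scale, and the other classes at 64 cells held 4 UMIs of the gene in all.

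ENSCSAVG00000001133 had the largest rise in contrast. In the endoderm it had 0, 11.3 and 14.2 CPM at 64 cells and 71.7, 58.8 and 48.8 CPM at 110 cells. In the other classes it had 31.4, 36.1 and 34.1 CPM at 64 cells and 34.9, 36.0 and 53.7 CPM at 110 cells. The endoderm was thus below the other classes in every 64-cell embryo and above them in 110-cell embryos 1 and 2. The contrast differed by 2.67 on the log2 scale (SE 0.56), with an adjusted p of 0.0207 in edgeR's quasi-likelihood test. At 110 cells the gene was highest in the class a8.17/18/19/20/25/26 of the animal side, at 193 CPM. It was not called in edgeR's quasi-likelihood test with 64-cell embryo 1 or 110-cell embryo 2 left out (adjusted p 0.162 and 0.112), with the other classes weighted equally (0.111), against vegetal lineages only (0.651) or without embryo as a block (0.9998), nor by DESeq2 (0.164).

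ENSCSAVG00000010093 had 51.8, 104 and 71.1 CPM in the 64-cell endoderm and 253, 163 and 238 CPM in the 110-cell endoderm. The other classes had 33.6, 44.6 and 28.5 CPM at 64 cells and 37.5, 43.0 and 42.2 CPM at 110 cells. The endoderm was the higher one in all 6 embryos, and by more at 110 cells. The contrast differed by 1.34 (SE 0.30), with an adjusted p of 0.0316 in edgeR's quasi-likelihood test. Its highest level was in the germ line class B7.6, with 1502 CPM at 64 cells and 2687 CPM at 110 cells. The endoderm came next at both stages, with 78.0 and 224 CPM as means over embryos. It was not called in edgeR's quasi-likelihood test with any 1 of 4 embryos left out (adjusted p 0.256 and 0.0574 without 64-cell embryos 1 and 2, 0.152 and 0.182 without 110-cell embryos 1 and 3). Nor was it called in that edgeR test with the other classes weighted equally (0.939), against vegetal lineages only (0.658, log2 difference 0.95), with other cells only from libraries that hold endoderm cells (0.0601) or without embryo as a block (0.9998), or by DESeq2 (0.275).

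The largest falls in contrast rested on a single cell. ENSCSAVG00000008180 had 27.9, 0 and 0 CPM in the 64-cell endoderm, and its 14 UMIs there were all in 1 of 28 cells. ENSCSAVG00000004176 had 179, 0 and 0 CPM, with 89 of 90 UMIs in 1 cell. At 110 cells both were at or near 0 in the endoderm and highest in the muscle class B8.15/16, at 447 and 196 CPM. The log2 differences between contrasts were -12.15 and -9.21 with adjusted p-values of 0.000109 and 5.24e-06 in edgeR's quasi-likelihood test, and 1.0 and 0.946 without the cells that stand apart. Neither was called without embryo as a block (0.9998 for both in edgeR's quasi-likelihood test) or by DESeq2 (1.0 for both).

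The endoderm cells of the 64-cell embryos also differed among themselves. The anterior class A7.1/2/5 was higher than the posterior class B7.1/2 in 3 genes (0.0671%) and lower in 21 (0.47%) of 4468 tested by edgeR's quasi-likelihood test within embryos. Without the cell that stands apart, which is a posterior one, the counts were 3 and 8. The anterior cells had a median of 25679 UMIs and the posterior cells 53060. The part of this depth difference was not tested. ENSCSAVG00000005749 did not pass, with 139, 166 and 141 CPM in anterior and 125, 91.5 and 98.0 CPM in posterior cells (log2 difference 0.48, SE 0.31, adjusted p 0.998 in edgeR's quasi-likelihood test).

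ENSCSAVG00000000017 led on the anterior side, with 352, 202 and 184 CPM in anterior and 68.2, 26.1 and 55.1 CPM in posterior endoderm. All anterior values were above all posterior ones, and the log2 difference was 2.29 (SE 0.33, adjusted p 4.57e-05 in edgeR's quasi-likelihood test, 0.535 without embryo as a block). ENSCSAVG00000005332 had 74.6, 160 and 191 CPM against 15.2, 65.3 and 61.3 CPM, a difference of 1.64 (SE 0.40, adjusted p 0.0451 in edgeR's quasi-likelihood test). Its call was lost without the cell that stands apart (adjusted p 0.145 in that test), with RLE scaling (0.0544), without embryo as a block (0.999), with DESeq2 (0.999) and with any 1 embryo left out (0.127 to 0.730). On the posterior side, ENSCSAVG00000011646 had 0, 0 and 12.3 CPM in anterior and 60.7, 144 and 123 CPM in posterior cells (log2 difference -4.58, SE 0.75, adjusted p 0.000454 in edgeR's quasi-likelihood test). ENSCSAVG00000004662 was at 0 in the anterior cells of all 3 embryos and at 64.5, 65.3 and 30.6 CPM in the posterior cells. Without the cell that stands apart it fell below the filter on low counts. DESeq2 called neither posterior gene (adjusted p 0.0619 and 0.259). These genes were also found outside the endoderm at 64 cells, by means over embryos. ENSCSAVG00000000017 had 277 CPM in the notochord class A7.3/7 and 132 in the whole endoderm. ENSCSAVG00000005332 had 85.8 CPM in A7.6 and 87.6 in the endoderm. ENSCSAVG00000011646 had 183 CPM in B7.8, 135 in B7.7 and 53.5 in the endoderm. ENSCSAVG00000004662 had 26.2 CPM in B7.3, 23.8 in B7.4 and 26.3 in the endoderm.

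In the joined class of 110 cells at least 1 UMI of ENSCSAVG00000000017 was found in 26 of 29 endoderm cells and of ENSCSAVG00000005332 in 29 of 29, so that detection of these anterior genes did not separate the cells. ENSCSAVG00000004662 was in 6 of 29 cells and ENSCSAVG00000011646 in 10 of 29. Outside the endoderm they were in 38 and 81 of 268 cells, so neither marks posterior endoderm alone. A UMI of either posterior gene was in 10 of the 29 cells, 5 of 10, 2 of 9 and 3 of 10 in embryos 1 to 3, and 19 cells had neither. At 64 cells, where these genes were chosen, it was in 10 of 10 posterior and 1 of 18 anterior cells.

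At equal depth the endoderm cells held more detected genes than the other cells of their embryo. With each cell thinned to 10000 UMIs, the 64-cell embryos had 91, 59 and 114 more genes per endoderm cell, and the 110-cell embryos 158, 100 and 126.2 more. The mean difference was 108 ± 33.7 genes (SD, n = 6 embryos), higher in 6 of 6. The exact two-sided sign-flip permutation test gave p = 0.0313, the smallest it allows, and 0.0469 adjusted over 3 such measures. No endoderm cell and at most 2 other cells of an embryo had fewer than 10000 UMIs and were left out. Without thinning, the means per embryo were 5173 to 5667 genes in endoderm cells and 4586 to 5435 in other cells. The run of neighbouring identifiers described further on held a smaller share of UMIs in the endoderm of all 6 embryos. Its part in the difference in detected genes was not tested.

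The UMIs per endoderm cell, as a ratio of medians to the other cells, were 1.14, 0.92 and 0.83 at 64 cells and 1.48, 1.27 and 1.67 at 110 cells. The log2 ratio was -0.07 ± 0.24 at 64 cells and 0.55 ± 0.20 at 110 cells (SD, n = 3 embryos each), without overlap. The exact two-sided permutation test between stages gave p = 0.1, the smallest that 3 against 3 allows. Over all 6 embryos the exact sign-flip permutation test of the ratio gave p = 0.219.

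A run of 42 genes with neighbouring identifiers, which includes the most abundant gene of the matrix, was low in the endoderm. Its share of UMIs was 3.67%, 2.76% and 4.21% in the endoderm of the 64-cell embryos, against 6.60%, 5.03% and 12.0% in the other classes. At 110 cells it was 4.72%, 2.32% and 1.90% against 10.3%, 5.48% and 6.41%. The endoderm was lower in 6 of 6 embryos, by 4.38 ± 2.06 percentage points on average (SD, exact two-sided sign-flip permutation p = 0.0313, 0.0469 adjusted over 3 measures). By class, pooled over embryos, the share was highest in the muscle classes, 19.5% in B7.4 and 19.4% in B8.7/8. At 64 cells it was 4.87% in the epidermis and 3.57% in the endoderm. At 110 cells it was 3.78% in anterior epidermis, 3.74% in posterior epidermis and 2.85% in the endoderm. The endoderm had the second lowest share of the 13 classes at 64 cells, after the notochord class A7.3/7, and of the 16 at 110 cells, after the notochord class B8.6. Of the genes called lower in endoderm, 18 of 106 at 64 cells and 21 of 179 at 110 cells belonged to this run. Genes with neighbouring identifiers can be near-identical copies that split reads, so single genes of the run are uncertain and not named.

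**Figure D5:**
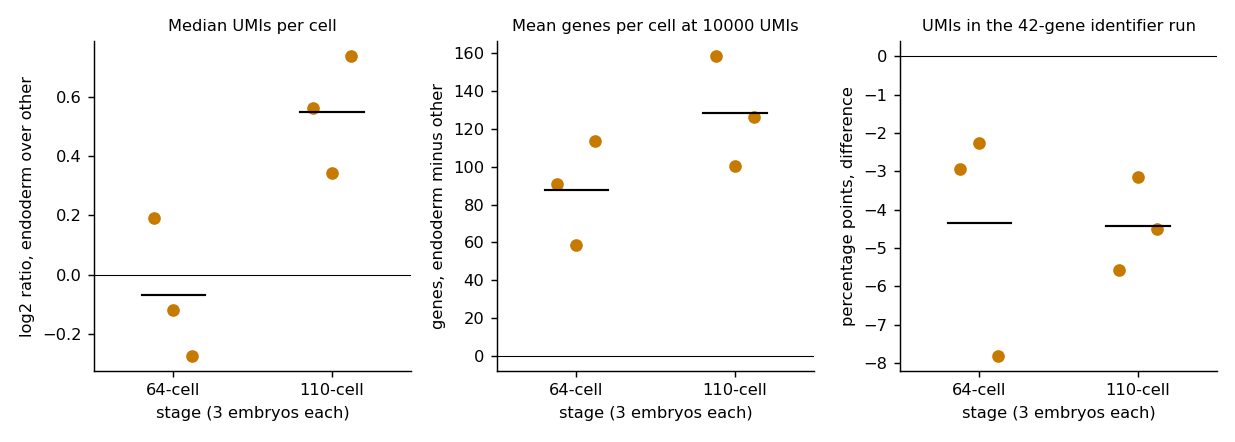
Endoderm against other cells of the same embryo in 3 measures: log2 ratio of median UMIs per cell, difference in mean genes per cell at 10000 UMIs, and difference in the percent of UMIs in the 42-gene run; points are embryos and black lines stage means. All 6 embryos lie above 0 in the second panel and below 0 in the third, and the stages do not overlap in the first.

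Restricting the other cells to the vegetal lineages, the A- and B-line cells, left 61 higher and 76 lower genes at 64 cells, and 97 higher and 122 lower at 110 cells, in edgeR's quasi-likelihood test. With other cells only from libraries that also hold endoderm cells, the counts were 91 and 105 at 64 cells and 114 and 176 at 110 cells. Both of these alternatives were added after seeing the data.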

How the data were processed

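The authors deposited a matrix of raw counts (12172 genes, 773 cells) and a cell table with each cell's library, embryo, stage and class. In all 64-, 110- and 4-cell columns used here the deposited counts are UMIs, since they sum to the table's UMI number, and in the 16- and 32-cell columns they are reads. CASAVA 1.8, DESeq2 and Seurat are named in the submitters' processing notes, while the sources used here do not give the aligner, genome build or annotation.

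UMIs were summed per embryo over endoderm cells and over all other classes except low quality. Sums of both stages were fitted together with edgeR 4.0.16 in R 4.3.3 (TMM, filterByExpr, quasi-likelihood F-test, embryo as a block, adjusted by Benjamini-Hochberg across the tested genes, threshold 0.05), which gave both contrasts and their difference. The pairing of the sums comes from the embryo itself. The stages of the endoderm were compared in a fit of its 6 sums, and anterior and posterior endoderm in sums of the 64-cell embryos. DESeq2 1.42.0 was an alternative. SE is the log2 difference over the root of the F statistic. Measures with 1 value per embryo were tested with exact permutation tests (scipy 1.17.1), and intervals of shares are exact Clopper-Pearson intervals at 95%. Scripts were tested on simulated counts.

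Named genes had an adjusted p under 0.05, groups that did not overlap and a mean of at least 20 CPM in the higher group, and were the 2 with the largest log2 difference in each direction, plus ENSCSAVG00000005749. The symbol lists of endoderm and other tissue markers matched 0 identifiers. The members and lists were chosen with earlier results of these data known. Nothing says that the embryos came from separate matings, so p-values measure the spread between these embryos only. Embryos were numbered in the order of the table. Apart from the 4-, 16- and 32-cell embryos used for levels at earlier stages, other samples of the series were not used here.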

Additional observations from a re-analysis of the deposited data

Results flagged for a closer look

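Only the named genes called in the test of the difference between the endoderm contrasts of the 2 stages are listed here, and groups of 3 embryos were not tested for outliers. The endoderm contrast of ENSCSAVG00000001133 was 2.67 higher on the log2 scale at 110 than at 64 cells. That of ENSCSAVG00000010093 was 1.34 higher. That of ENSCSAVG00000008180 was -12.15 on the same scale and -5.32 without the cells that stand apart, where it was not called. That of ENSCSAVG00000004176 was -9.21, and -3.54 without those cells, where it was not called either.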

How the results depend on the processing

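Of the counts of called genes, several moved by over 1.5 times. At 64 cells DESeq2 called 114 genes, a test against a log2 fold change of at least 1 called 67, and the fit with no replicate block called 48, against 194. At 110 cells these were 190, 142 and 111 against 288, and 181 with sums thinned to one total. For the change of the contrast, 58 genes passed with any count kept, 2 with DESeq2, 0 with no replicate block (127 at an unadjusted p under 0.05 in edgeR) and 12 against vegetal lineages only, against 20. Between the endoderm of both stages 66 passed with any count kept and 8 with DESeq2, against 0. Anterior against posterior endoderm gave 24 genes, 11 without the cells that stand apart, 54 with any count kept, 2 with DESeq2 and 0 with no replicate block (66 at an unadjusted p under 0.05 in edgeR). Leaving out 1 embryo at a time gave 137 to 206 genes at 64 cells, 172 (without 110-cell embryo 3) to 309 at 110 cells, 10 (without 110-cell embryo 2) to 27 for the change of the contrast, 0 to 1 between stages, and 11 (without 64-cell embryo 3; 12 without embryo 1) to 21 for anterior against posterior. The median contrast at 110 cells of the genes higher at 64 cells was 0.47 with a pseudocount of 40 and 1.32 without the cells that stand apart, against 0.88. The causes were not tested. With 5 embryos, the exact sign-flip permutation test allows no p below 0.0625, so the measures per embryo could not pass: genes per cell ranged from 98.0 to 118 and the run's share from -4.80 to -3.69 percentage points. Of 284 recomputed differences of single named genes, 246 kept their direction and side of the threshold, 35 fell short of it and 3 passed it, and 0 changed sign. A gene with 0 UMIs in the summed endoderm of a stage could still have up to 2.55 CPM at 64 cells and 2.23 CPM at 110 cells.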
